A study of Macaca mulatta with 8 samples.

Results

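The 7 genes described here encode the subunits of inhibin and activin (INHA, INHBA and INHBB), anti-Müllerian hormone (AMH), bone morphogenetic protein 6 (BMP6), the activin binder FSTL3 and the transcription regulator ID3. They were taken by symbol, as every probe set to which the platform annotation gives exactly 1 of these names. This gave 11 of the 52766 probe sets on the array and 7 of the 14132 genes with a single symbol. Where a gene has several probe sets, the main one is that with the highest mean log2 intensity over all 8 arrays.

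The samples are granulosa cells of rhesus macaques, the somatic cells of the ovarian follicle, in groups of 4 RNA samples with 1 Affymetrix rhesus array each. The cells of the group after hCG came from follicles that had received FSH and then human chorionic gonadotropin (hCG), which stands in for the ovulatory surge and acts through the luteinizing hormone receptor. The cells of the group before hCG came from follicles that had received FSH alone, so FSH stimulation is common to both groups. The series design calls the cells mural granulosa cells, while the source labels speak of cells from cumulus-oocyte complexes; no source used here gives the time from hCG to collection, or says whether replicates share animals or follicles. P-values therefore measure only the spread between these samples, which may be technical.

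Inhibins are dimers of the INHA alpha subunit with a beta subunit from INHBA or INHBB, and activins are dimers of beta subunits alone. Granulosa cells of the growing follicle are a main source of inhibin, which lowers FSH release from the pituitary, while activin signals through SMAD2 and SMAD3 and is bound and blocked by follistatin (FST) and FSTL3. AMH and the BMPs signal through another branch, SMAD1, SMAD5 and SMAD9, whose best-known targets are the ID genes.

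The array medians were 5.44 to 5.54 log2 units, and Pearson correlations over probe sets were 0.974 to 0.984 within the group after hCG, 0.984 to 0.988 within the group before hCG and 0.935 to 0.957 between the groups. Of 11 granulosa cell markers listed, 7 were measured, and each of these had group means above the array medians; 6 of them fell after hCG and STAR, the cholesterol carrier of steroid synthesis, rose. None of the 8 measured oocyte markers passed the test, and their summed log2 intensity was 9.31 to 9.80 after hCG and 9.32 to 9.62 before hCG. The 7 measured leukocyte markers summed to 9.02 to 10.36 after hCG, below the 10.47 to 10.62 before hCG. That separation came from CSF1R, the marker past the threshold: the other 6 differed by -0.49 to 0.84 and summed to 8.60 to 10.15 after hCG and 9.15 to 9.95 before hCG, which overlap. The 3 erythrocyte markers summed to 8.37 to 10.53 after hCG, also below the 10.70 to 11.17 before hCG. Surface epithelium markers summed to 9.74 to 10.66 after hCG and 9.25 to 9.63 before hCG, with WT1 and KRT19 higher; the other 4 measured markers differed by -0.31 to -0.06, did not pass and summed to 8.59 to 8.84 after hCG and 8.77 to 9.03 before hCG. In samples of many cells, fewer cells of a type and less RNA per cell cannot be told apart, and the part of these shifts in the results was not tested.

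The comparison asks how these signalling genes differ in the granulosa cells after the ovulatory stimulus. Transcripts of all 3 inhibin and activin subunits, of AMH and of ID3 fell, and those of FSTL3 and BMP6 rose. All 7 genes passed limma's test at an adjusted p of 0.05, 2 of them higher and 5 lower, and their groups did not overlap. Among all 14132 genes 23.8% passed, 11.3% higher and 12.5% lower, and the groups did not overlap for 27.2% (11.8% higher and 15.4% lower). The median log2 difference, after hCG minus before hCG, was -0.68 for the 7 genes and -0.09 for all genes, and the median size of the difference was 2.13 for the 7 genes and 0.24 for all genes. The genes were chosen with results of these data known, so their count is a description.

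**Figure D1:**
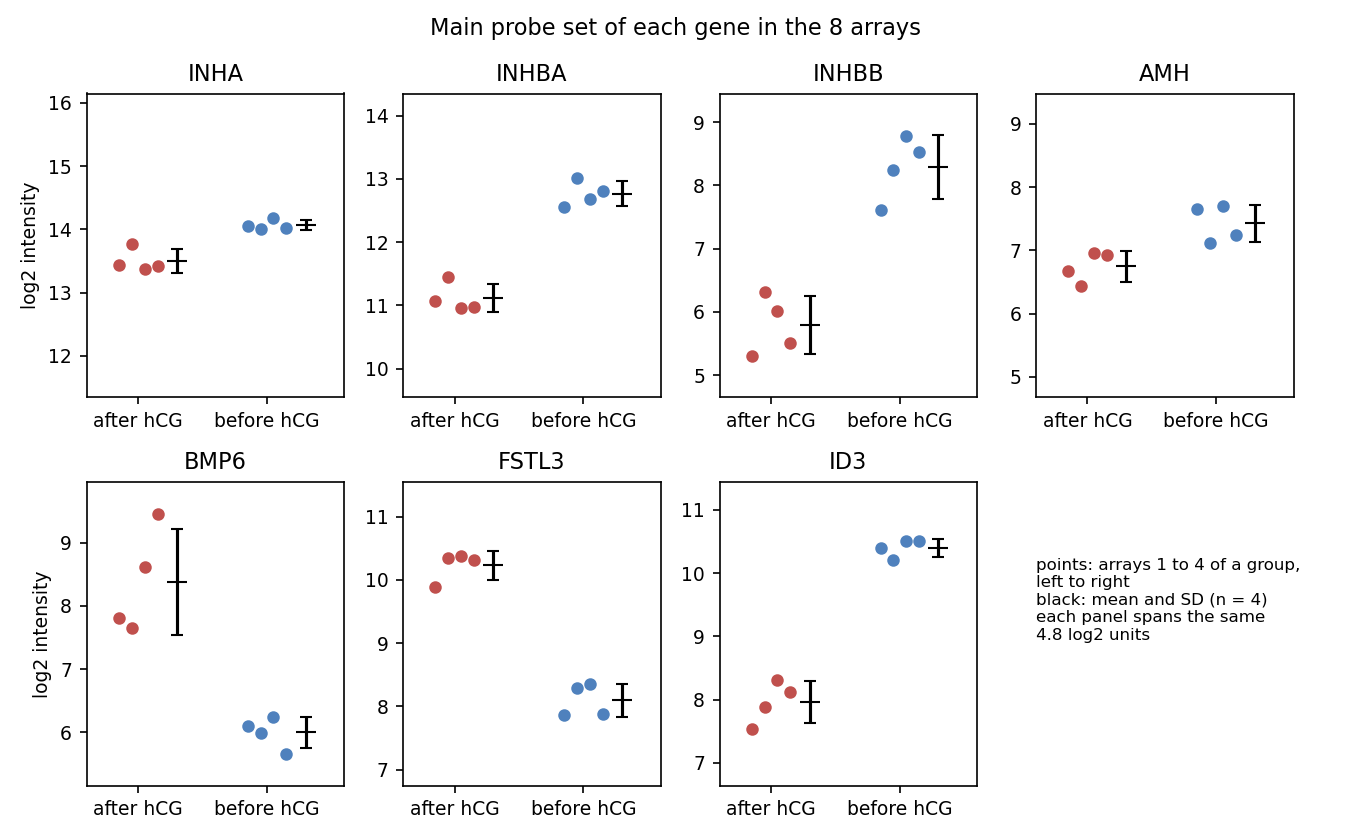
Log2 intensity (vertical axes) of the main probe set of each of the 7 genes in the 4 arrays after hCG (red, left) and the 4 arrays before hCG (blue, right), with mean and SD in black. No gene has overlapping groups, and the 4 values of BMP6 after hCG are spread widest, over 1.81 log2 units.

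INHA, the alpha subunit that makes a dimer an inhibin, read 13.43, 13.77, 13.37 and 13.42 log2 units in arrays 1 to 4 after hCG, against 14.06, 14.01, 14.18 and 14.02 in arrays 1 to 4 before hCG. The groups did not overlap, with a gap of 0.24 between array 2 after hCG and the lowest array before hCG. INHA averaged 13.50 ± 0.19 after hCG and 14.07 ± 0.08 before hCG (SD, n = 4 each), and fell by 0.57 (SE 0.12, adjusted p = 0.00723, limma), which is 1.49-fold lower. Its mean was higher than that of 99.9% of genes in both groups together, and on the linear scale it read 11629 ± 1588 after hCG and 17199 ± 962 before hCG, while the brightest probe set of each array read 22983 to 25280. How far the fold is compressed at this brightness was not tested, which also limits the comparisons of INHA with the beta subunits. Its spread before hCG was small: 7.97% of genes had a smaller SD there.

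INHBA encodes the beta A subunit, shared by inhibin A and activin A. Its main probe set read 11.07, 11.45, 10.96 and 10.98 after hCG, against 12.55, 13.01, 12.68 and 12.81 before hCG. Every array after hCG lay at least 1.10 log2 units under every array before hCG. INHBA averaged 11.12 ± 0.23 after hCG and 12.76 ± 0.19 before hCG, and fell by 1.65 (SE 0.15, adjusted p = 6.71e-05, limma), or 3.13-fold. A further probe set of INHBA read 10.99, 10.74, 10.07 and 10.37 after hCG, against 12.18, 12.73, 12.46 and 12.72 before hCG. It fell by 1.98 (SE 0.21), so both probe sets gave a decrease of similar size, and its groups too were separate.

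INHBB encodes the beta B subunit of inhibin B and activin B. Its main probe set read 5.31, 6.31, 6.02 and 5.51 after hCG, against 7.61, 8.24, 8.78 and 8.53 before hCG. After hCG array 1 lay under and array 4 close to the medians of all probe sets, and the groups were 1.30 log2 units apart. INHBB averaged 5.79 ± 0.46 after hCG and 8.29 ± 0.50 before hCG, and fell by 2.50 (SE 0.28, adjusted p = 0.00023, limma, 95% interval -3.14 to -1.87), or 5.67-fold; its decrease ranked 50 in size among the 14132 genes. Its spread was wide in both groups, with a smaller SD in 87.6% of genes after hCG and in 95.6% before hCG. The fold of INHBB depends on the probe set and on the background. Its other probe set, annotated with the same accession, read 6.11, 6.21, 5.79 and 6.15 after hCG, against 6.51, 7.01, 7.33 and 6.94 before hCG. This probe set fell by 0.89 (SE 0.17, adjusted p over all probe sets 0.00734, limma), so it gave a decrease, but a smaller one. The mean of both probe sets fell by 1.69, and with 32 added to each intensity the main one fell by 1.98.

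Whether the 3 subunits fell by unequal amounts was asked within each array, where a common scale cancels; the level of such a difference has no meaning of its own, since probe sets bind with different strength, and only its shift between groups is read. The difference INHBA minus INHA was -2.35, -2.33, -2.41 and -2.44 after hCG, against -1.51, -1.01, -1.50 and -1.21 before hCG. The 4 values after hCG were nearly alike, with an SD of 0.05. INHBA thus fell by 1.08 more than INHA on the log2 scale, a 2.11-fold shift of one against the other. INHBB minus INHA averaged -7.71 ± 0.36 after hCG and -5.78 ± 0.47 before hCG (SD, n = 4 each), a shift of -1.93. INHA spanned 13.37 to 14.18 over all 8 arrays, less than the gap between the groups of INHBA (1.10) or of INHBB (1.30). The groups of these differences could therefore not overlap, and no p is given. The measured decrease of both beta subunits was larger than that of the alpha subunit, with main probe sets and with means of probe sets, subject to the brightness of INHA. For INHBB this order leans on its main probe set. Its other probe set fell by 0.89 (SE 0.17), against 0.57 (SE 0.12) for INHA, and that difference was not tested.

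Between the beta subunits the data gave no such order. INHBB minus INHBA averaged -5.33 ± 0.36 after hCG and -4.47 ± 0.47 before hCG, a shift of -0.86 with the main probe sets (n = 4 each). The exact two-sided permutation test gave p = 0.0286, the smallest that 4 against 4 arrays allow. Adjustment over 5 such differences left it at 0.0286. The groups of the other differences could not overlap and gave the same p, so this adjustment could not raise it and is no correction for multiple testing. With the mean of all probe sets of each gene the shift was 0.12 (exact permutation, adjusted p = 0.571), and with 32 added to each intensity it was -0.34 (adjusted p = 0.229). Which beta subunit fell more depended on the probe set used.

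FSTL3, a secreted protein of the follistatin family that binds activins and related ligands, went the other way. It read 9.89, 10.35, 10.37 and 10.31 after hCG, against 7.86, 8.29, 8.36 and 7.88 before hCG. Array 1 was the lowest after hCG and still 1.53 log2 units above the highest array before hCG. FSTL3 averaged 10.23 ± 0.23 after hCG and 8.09 ± 0.26 before hCG, and rose by 2.13 (SE 0.16, adjusted p = 2.65e-05, limma), or 4.39-fold. It has 1 probe set. Set against the activin subunit within each array, INHBA minus FSTL3 was 1.19, 1.10, 0.59 and 0.67 after hCG, against 4.69, 4.72, 4.33 and 4.93 before hCG. The shift was -3.78, or 13.8-fold, and -3.65 with 32 added to each intensity. Since INHBA was lower and FSTL3 higher in every array after hCG, these groups could not overlap, and no p is given. FST, the other well-known activin binder, read 12.26 ± 0.18 after hCG and 11.94 ± 0.26 before hCG, a difference of 0.32 (SE 0.15, adjusted p = 0.166, limma) that did not pass.

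**Figure D2:**
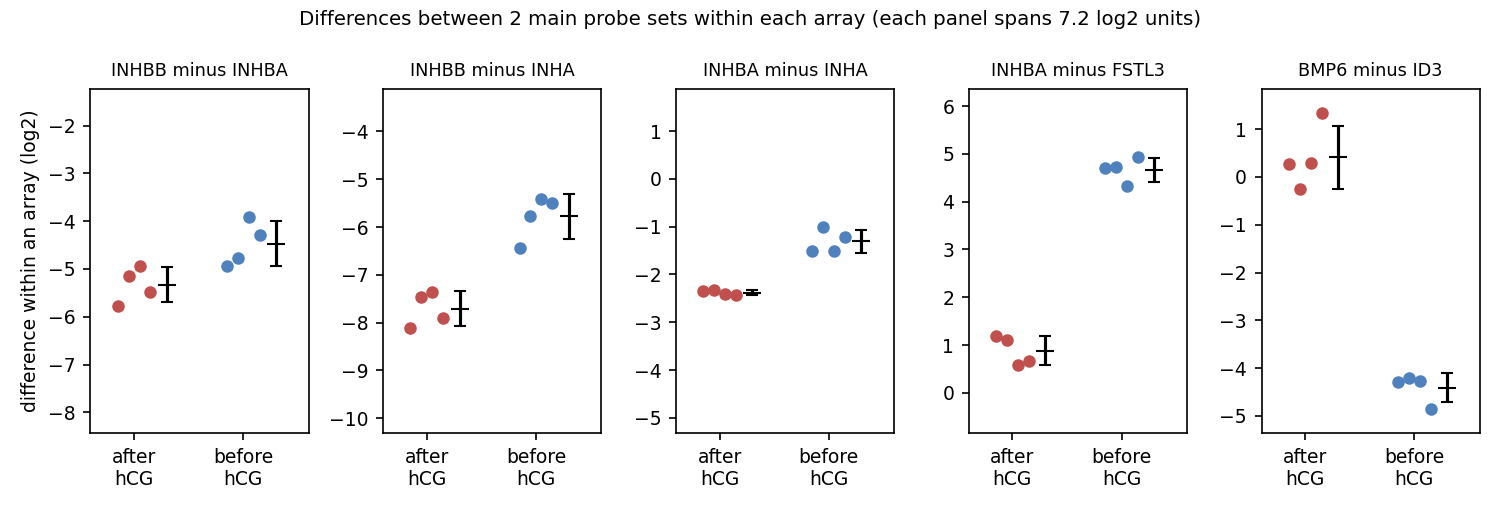
Difference between the log2 intensities of 2 main probe sets within each array (vertical axes) for 5 pairs of genes, in the 4 arrays after hCG (red, left) and the 4 before hCG (blue, right), with mean and SD in black. The groups are separate in every panel, with the smallest shift for INHBB minus INHBA (-0.86) and the largest for BMP6 minus ID3 (4.82); only the shift between groups is interpretable, not the level.

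AMH, the hormone of small growing follicles whose transcripts are known to decline as follicles mature, read 6.68, 6.43, 6.96 and 6.93 after hCG, against 7.65, 7.12, 7.71 and 7.25 before hCG. The groups were separated by 0.16 log2 units, the narrowest gap of the 7 genes. AMH averaged 6.75 ± 0.24 after hCG and 7.43 ± 0.29 before hCG, and fell by 0.68 (SE 0.18, adjusted p = 0.0195, limma), or 1.61-fold. This call rested on single arrays: leaving out array 2 after hCG gave a decrease of 0.58 (adjusted p = 0.0527), leaving out array 1 of the group before hCG one of 0.61 (adjusted p = 0.0574), and leaving out array 3 of that group one of 0.59 (adjusted p = 0.0553). AMHR2, the type II receptor dedicated to AMH, read 6.83, 7.31, 7.05 and 6.54 after hCG, against 7.94, 7.99, 7.66 and 8.07 before hCG. It fell by 0.98 (SE 0.17, adjusted p = 0.00278, limma), so the transcripts of ligand and receptor were both lower.

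BMP6, a BMP ligand made in follicles by granulosa cells and oocytes, read 7.81, 7.64, 8.61 and 9.46 after hCG, against 6.11, 5.99, 6.24 and 5.65 before hCG. All arrays after hCG were higher than all arrays before hCG, by at least 1.41 log2 units, and array 4 after hCG was the highest. On the linear scale BMP6 read 224, 199.9, 390 and 703 after hCG, against 68.8, 63.6, 75.5 and 50.4 before hCG, so its coefficient of variation was 61.2% after hCG and 16.5% before hCG. BMP6 averaged 8.38 ± 0.83 after hCG and 5.997 ± 0.25 before hCG on the log2 scale, and rose by 2.38 (SE 0.36, adjusted p = 0.00114, limma, 95% interval 1.58 to 3.18), or 5.21-fold. Its SD after hCG was larger than that of 97.4% of genes. Without array 4 after hCG the increase was 2.02 (adjusted p = 0.000559). With 32 added to each intensity it was 1.94 (adjusted p = 0.00604, limma). BMP6 has 1 probe set, and its values before hCG were little above the array medians, so its fold depends on the background. Among the 8 measured oocyte markers, none of which passed, ZP4 read 8.95 ± 0.28 after hCG and 8.64 ± 0.23 before hCG (SD, n = 4 each), and ZP1 and ZP3 were also above the array medians in both groups, with differences of -0.21 and -0.01. BMP15, FIGLA, DAZL, NLRP5 and SYCP3 were under the medians in both groups. BMP2, another BMP ligand with scattered values after hCG, read 6.97, 7.53, 5.33 and 7.73 there, against 5.91, 6.29, 5.70 and 5.74 before hCG, and did not pass (difference 0.98, SE 0.45, adjusted p = 0.157, limma).

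ID3, an inhibitor of helix-loop-helix transcription factors and a well-known target of BMP signals, read 7.53, 7.88, 8.31 and 8.13 after hCG, against 10.40, 10.20, 10.51 and 10.51 before hCG. The gap of 1.89 log2 units between the groups was the widest of the 7 genes. ID3 averaged 7.96 ± 0.34 after hCG and 10.40 ± 0.14 before hCG, and fell by 2.44 (SE 0.17, adjusted p = 1.4e-05, limma), or 5.42-fold. Its 2 other probe sets lay below the array medians in both groups. One read 4.47 ± 0.31 after hCG and 4.53 ± 0.16 before hCG, and the other 2.66 ± 0.06 after hCG and 2.81 ± 0.05 before hCG. They differed by -0.06 and -0.16 and did not pass (adjusted p over all probe sets 0.85 and 0.324, limma), so the decrease of ID3 is read from its bright probe set alone, and the mean of the 3 probe sets fell by 0.89. BMP6 minus ID3 within each array was 0.27, -0.24, 0.30 and 1.33 after hCG, against -4.29, -4.21, -4.27 and -4.85 before hCG, a shift of 4.82. This restates the separate changes of both genes, whose groups do not overlap in opposite directions, so no p is given.

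**Figure D3:**
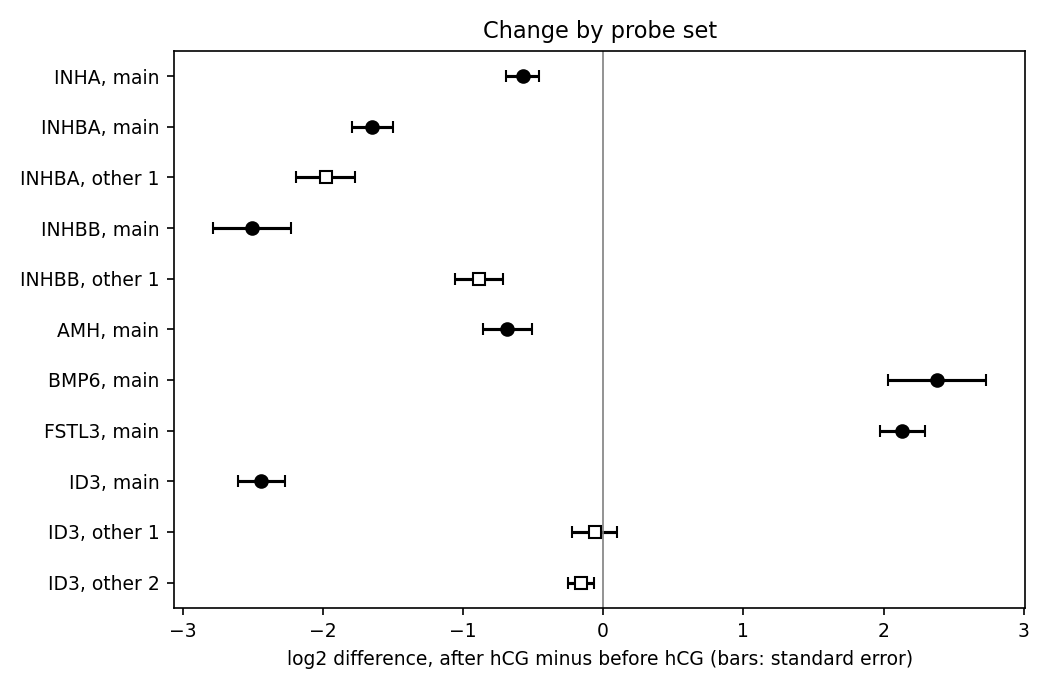
Log2 difference, after hCG minus before hCG (horizontal axis, bars are standard errors), for all 11 probe sets of the 7 genes, main ones filled and others open. The probe sets of INHBA lie close together (-1.65 and -1.98), those of INHBB lie apart (-2.50 and -0.89), and the 2 dim probe sets of ID3 lie near 0.

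Of the 11 probe sets, 9 passed when p was adjusted over all 52766 probe sets, 2 higher and 7 lower, against 14.1% of all probe sets (7.24% higher and 6.85% lower), and the groups did not overlap for 10, against 19.3% of all probe sets. The arrays of a group did not rank alike across the genes. Array 2 after hCG was the highest of its group for INHA and for the main probe sets of INHBA and INHBB, but the lowest for AMH and BMP6. For the other probe set of INHBA, array 1 after hCG was the highest.

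The genes whose profiles over the 8 arrays were most like those of the members were looked up by the root mean square difference of the centred log2 values, which weighs the group difference and the scatter together. PKMYT1 (0.08) and CASP12 (0.10) were nearest to INHA, and DLG2 (0.12) and AURKB (0.15) to INHBA. MAD2L1 (0.20) and SMC2 (0.26) were nearest to INHBB, and TMPO (0.20) and TOP2A (0.21) to ID3. ZNF436 and MBTD1 (both 0.10) were nearest to AMH, TOX3 (0.20) and PARP3 (0.23) to FSTL3, and CTTNBP2 (0.22) and FAT4 (0.25) to BMP6. The median of this measure over all genes ran from 0.35 for INHA to 1.36 for BMP6. Among the members, the profiles of INHBB and ID3 (0.39) and of INHA and AMH (0.30) differed least.

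The members were then set among the other genes of the TGF-beta family pathways, from a list of 97 genes by role, of which 74 could be matched to a measured gene. Without the 7 members, 67 were measured: 6 rose, 5 fell and 56 did not pass, so 16.4% passed against 23.8% of all genes, with a median log2 difference of -0.09, as for all genes. Of the 14 other ligands measured, GDF11 rose by 0.43 (SE 0.13, adjusted p = 0.0376, limma) from a level under the array medians, and missed the threshold when p was adjusted over all probe sets (adjusted p = 0.05003). TGFB3, a TGF-beta, fell by 1.15 (SE 0.13), while its other, dimmer probe set differed by -0.36 and did not pass. The other 12 ligands did not pass.

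Of 16 receptors and co-receptors, 1 rose, 2 fell and 13 did not pass. ENG, a co-receptor of TGF-beta and BMP ligands that is prominent in blood vessels, rose by 0.57 (SE 0.10). Its other, dimmer probe set had the opposite sign, with a difference of -0.27, and did not pass. None of the 8 measured endothelium markers passed, with differences from -0.31 (CLDN5) to 1.26 (VWF). ENG was itself on the list of theca cell markers, of which 6 were measured: ENG rose, CYP17A1 fell by 0.47 and 4 did not pass. The part of vessel or theca cells in the change of ENG was not tested. Beside AMHR2, RGMB, a BMP co-receptor, fell by 0.89 (SE 0.15), and its other 2 probe sets, at -0.56 and -0.32, did not pass. TGFBR3, betaglycan, the co-receptor that inhibin uses, was bright in both groups, at 12.13 ± 0.25 after hCG and 12.42 ± 0.13 before hCG, and did not pass (difference -0.29, adjusted p = 0.178, limma). The activin receptors ACVR1B, ACVR2A and ACVR2B did not pass either, with differences of 0.42, -0.33 and -0.15.

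Of 6 SMADs, SMAD2, which carries activin and TGF-beta signals, fell. It read 10.53, 10.48, 10.40 and 10.18 after hCG, against 11.27, 11.28, 11.46 and 11.37 before hCG, a decrease of 0.95 (SE 0.11, adjusted p = 0.00031, limma). Of its 4 probe sets 2 passed, both lower. SMAD7, which blocks signals of the whole family, read 5.51, 5.40, 5.66 and 7.61 after hCG, against 4.90, 4.84, 4.51 and 4.92 before hCG; it did not pass (difference 1.25, SE 0.43, adjusted p = 0.0648, limma), and array 4 after hCG stood above the rest.

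Of 20 other binders and inhibitors, 2 rose, 1 fell and 17 did not pass. BAMBI, a pseudoreceptor that dampens BMP and TGF-beta signals, read 9.86, 10.16, 11.36 and 10.06 after hCG, against 12.37, 12.30, 12.43 and 12.07 before hCG. It fell by 1.93 (SE 0.29, adjusted p = 0.00119, limma), with array 3 after hCG the highest of its group. SMURF1, a ubiquitin ligase that marks SMAD proteins and receptors for breakdown, rose by 1.04 (SE 0.20), and its other 2 probe sets did not pass. FSTL1, a distant relative of FST, rose by 0.38 (SE 0.11), with 1 of 3 probe sets past the threshold.

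Of 5 processing proteases, 1 rose and 4 did not pass. PCSK5, a proprotein convertase that cleaves precursors of TGF-beta family ligands, read 10.68, 9.86, 9.78 and 10.87 after hCG, against 4.86, 4.66, 4.78 and 5.58 before hCG. The increase was 5.33 (SE 0.29, adjusted p = 3.96e-06, limma) in its main probe set, from a level close to or under the array medians. The other probe set of PCSK5 was at 4.89 ± 0.26 after hCG and 5.10 ± 0.13 before hCG and did not pass.

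Among 6 targets other than ID3, 1 rose and 5 did not pass. ID4, a relative of ID3, read 11.98, 12.01, 12.04 and 12.53 after hCG, against 7.43, 7.90, 8.03 and 7.79 before hCG, and rose by 4.35 (SE 0.17, adjusted p = 4.71e-07, limma). All 4 of its probe sets passed, with increases of 1.79 to 4.35. ID4 and ID3 thus moved in opposite directions, while ID1 was below the array medians in both groups and did not pass (difference -0.36, adjusted p = 0.0843, limma).

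**Figure D4:**
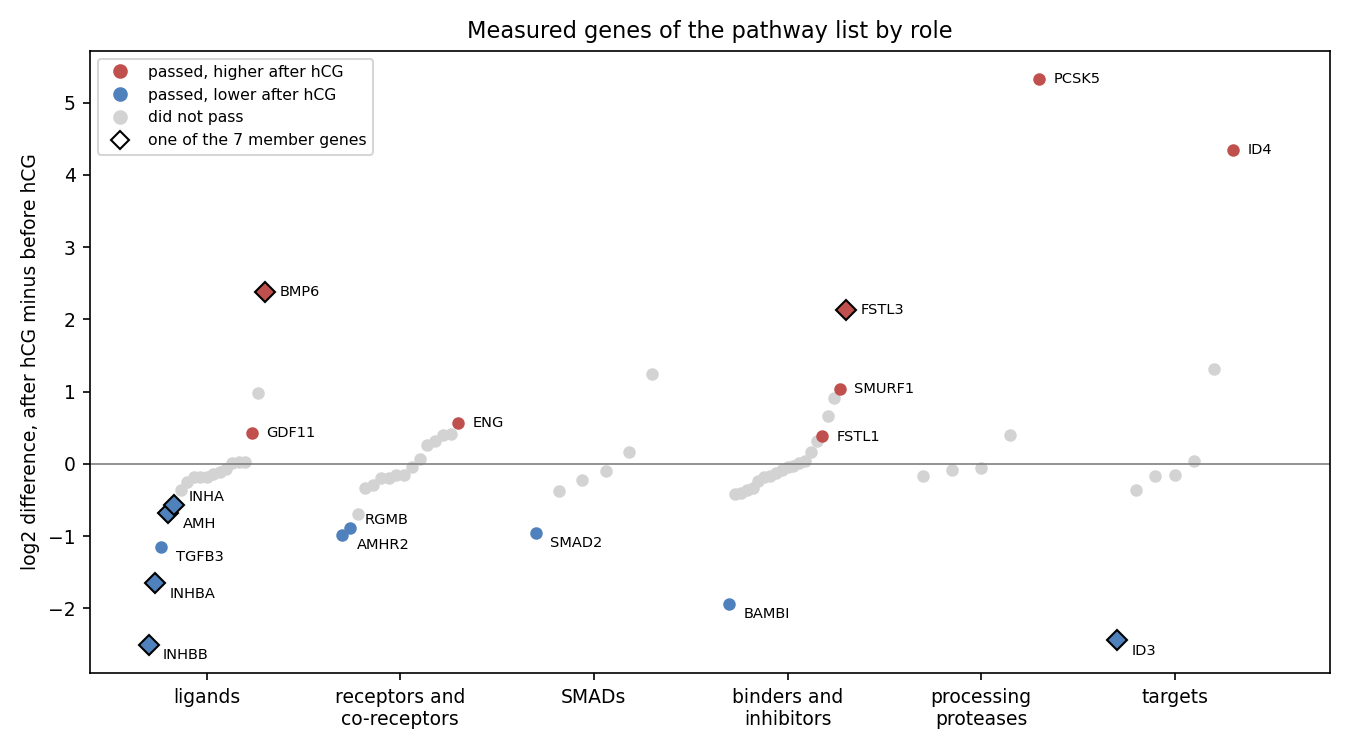
Log2 difference, after hCG minus before hCG (vertical axis), of the 74 measured genes of the pathway list, grouped by role along the horizontal axis and sorted within each role. Diamonds are the 7 member genes, red and blue mark genes past the threshold (8 higher, 10 lower), and PCSK5 and ID4 lie highest.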

How the data were processed

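The deposited table holds intensity values on a linear scale. The submitters' processing notes name Affymetrix Expression Console and RMA, the robust multi-array method, without versions. Per the labels' protocols, 50 ng of RNA per sample went through 2 rounds of linear amplification. Their log2 was used, with no further normalization. Of 52865 rows, 99 array controls were left out. Gene symbols came from GEO's platform annotation: 24956 probe sets had 1 symbol, 361 had several and 27449 had none, and 24616 matched the reference gene table. The table carries no detection calls and no scan batch, and precision is limited by the number of arrays. No sequences or coordinates were used here.

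The group difference, after hCG minus before hCG, was fitted with limma 3.58.1 (lmFit, eBayes) under R 4.3.3 over 14132 genes with 1 probe set each. P-values were adjusted by Benjamini-Hochberg, and genes under an adjusted p of 0.05 passed. Other probe sets of a gene were read from the same fit over all probe sets. Changes are log2 differences with SE. Shifts between 2 genes within an array were tested by exact two-sided permutation (scipy 1.17.1) over the 8 arrays. On data simulated for this comparison (14132 genes, 200 changed, 20 runs), log2 changes of 0.5, 1 and 2 were recovered in 10.5%, 82.5% and 98.3%. Of the genes called, 5.1% were false. The simulation changed far fewer genes than the 3359 that passed in the data, so its recovery rates may differ from those of the real comparison.

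The members and lists were chosen with earlier results of these data known. Named genes are the members, the pathway genes past the threshold, and the 2 genes nearest to each member in profile, without uncharacterised symbols. FST, TGFBR3, ACVR1B, ACVR2A, ACVR2B, BMP2, SMAD7, ID1 and the cell type markers were named in addition, after their values were seen. Alternatives were median centring, repeated quantile normalization, the mean of all probe sets, 32 added to each intensity, a filter on low signals (mean log2 above 5.5), eBayes with a trend and robust priors, adjustment over all probe sets, a replicate block and leaving out each array.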

Additional observations from a re-analysis of the deposited data

Results flagged for a closer look

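Among the 7 members and the 11 other pathway genes past the threshold, 3 of 36 groups of 4 arrays held a value that stood apart from the other 3 by more than Dixon's 95% critical value for the gap over the range; chance flags about 1 in 20 groups. INHA in array 2 after hCG read 13.77, against 13.37 to 13.43 in the other arrays after hCG, and without it INHA fell by 0.66. FSTL3 in array 1 after hCG read 9.89, against 10.31 to 10.37 in the other arrays after hCG, and without it FSTL3 rose by 2.25. ID4 in array 4 after hCG read 12.53, against 11.98 to 12.04 in the other arrays after hCG.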

How the results depend on the processing

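Of 210 values recomputed under alternatives, 205 kept their direction and their side of the threshold (counts within 1.5 times, and values without a test within 1 SD). The log2 differences of INHA, INHBA, INHBB, FSTL3, BMP6 and ID3 did so under all 16 alternatives. The low-signal filter, trend and robust priors, adjustment over all probe sets and replicate block changed only SE and p. Each log2 difference there was the same by construction, as was the mean of all probe sets for genes with a single probe set. Leaving out each array gave -0.66 to -0.53 for INHA, -1.76 to -1.57 for INHBA, -2.73 to -2.34 for INHBB, 2.06 to 2.25 for FSTL3, 2.02 to 2.63 for BMP6 and -2.55 to -2.30 for ID3. For AMH it gave -0.79 to -0.58, and 3 of the 8 fits did not pass (highest adjusted p = 0.0574, limma). The shift of INHBB minus INHBA reversed to 0.12 with the mean of all probe sets and was -0.34 (exact permutation, adjusted p = 0.229) with 32 added to each intensity, and lay between -1.01 and -0.67 when each array was left out, where the exact two-sided permutation of 3 against 4 arrays cannot reach 0.05 and no other test was run. The shifts of INHBA minus INHA and INHBB minus INHA kept their direction with the mean of all probe sets and with 32 added. So did those of INHBA minus FSTL3 and BMP6 minus ID3. Between 2699 and 3539 genes passed under the alternatives, 6 to 9 pathway genes higher and 9 to 11 lower. Same-numbered arrays were not treated as pairs. The correlations of their deviations from group means were -0.03 to 0.16. Of the arrays after hCG, only array 2 correlated best with its own number. With so few arrays these correlations cannot decide whether replicates share animals. With the replicate block 3063 genes passed, 6 pathway genes higher and 11 lower, and the calls of the 7 members did not change. Signals near the array medians, as for INHBB, BMP6, PCSK5 and GDF11, limit the folds read from them.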
